A study of Homo sapiens with 12 samples.

Results

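The 10 genes described here encode enzymes of core glycolysis and the lactate dehydrogenases that follow it: hexokinase HK2, aldolase ALDOA, triosephosphate isomerase TPI1, glyceraldehyde-3-phosphate dehydrogenase GAPDH, phosphoglycerate kinase PGK1, phosphoglycerate mutase PGAM1, enolase ENO1, pyruvate kinase PKM, and the lactate dehydrogenase subunits LDHA and LDHB. They were chosen by symbol, and all 10 were found among the 63677 Ensembl identifiers of the table. Of these 10, 9 entered the test across 15489 genes, and PGAM1 did not, for a reason given with its values. The libraries were polyA RNA sequencing libraries of HCT116, an established human colorectal cancer line, 3 for each of 4 genotypes. CR3 cells expressed a peptide that the submitters describe as perturbing condensates, the membraneless assemblies of protein and RNA in which many transcription factors and coactivators gather. Scramble cells and reverse cells carried constructs known here only by those names, and mCherry cells, labelled as the control, carried a fluorescent protein. All 12 libraries came from cell clones given doxycycline, which switched the constructs on, at a labelled 1 ug/ul and for a labelled 48 whose time unit is missing, so a change that the drug alone brings is shared by every group. Nothing in the labels says whether the 3 libraries of a group came from separate cultures or clones, so the p-values measure the spread between these libraries, which may be technical.

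Glycolysis breaks glucose down to pyruvate in the cytosol and yields ATP without oxygen. Lactate dehydrogenase then reduces pyruvate to lactate, which restores the NAD+ that the GAPDH step consumes. Tumour cells often run this route at a high rate even when oxygen is present, and colorectal cancer lines such as HCT116 express its enzymes strongly. The lactate dehydrogenase enzyme is a tetramer of LDHA and LDHB subunits in varying mixture, LDHA-rich forms being known for turning pyruvate into lactate and LDHB-rich forms for the opposite direction. Many of these genes are known targets of the hypoxia-inducible factors and of MYC.

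Libraries held between 17427902 and 23566048 reads assigned to genes. A normalized read is a read scaled by the library's size factor, and levels below are in that unit. The deposited table had lost its decimal marks, and the counts were rebuilt from the value of a single read in each library. A gene was called changed where its adjusted p in a limma fit over all 12 libraries and all tested genes was under 0.05.

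The 9 tested enzymes were all called lower in CR3 cells than in mCherry cells, where 14.5% of all tested genes were. At the ends of the range, TPI1 fell by 17.4% and LDHA fell by 36.9%. Against scramble cells 7 of the 9 were called lower (18.6% of all tested genes), and against reverse cells 8 were (16.6%). None of the 9 was called higher, which 14.0% of tested genes were against mCherry, 19.1% against scramble and 16.9% against reverse. CR3 libraries lay below all libraries of the other group, with no overlap, for 7 of the 9 against mCherry, 7 against scramble and 8 against reverse, and for 18.7%, 24.3% and 21.9% of tested genes in these comparisons. TPI1, GAPDH, PGK1, ENO1, PKM, LDHA and LDHB, 7 of the 9, were called lower against all 3 groups, a rule that 11.1% of tested genes met. The median log2 fold change of the 9 was -0.34 relative to mCherry, -0.32 to scramble and -0.30 to reverse, whereas the median over all tested genes was 0.002, 0.013 and 0.007 in the same comparisons. Abundant genes leaned the same way, at the median to a lesser extent. Among 5024 tested genes with a mean of at least 1000 normalized reads, the class to which all 9 belong, the median was -0.05 against mCherry and -0.06 against both scramble and reverse, and 27.4%, 34.7% and 31.3% were called lower. Scaling by library size alone ended the calls of ALDOA against mCherry and of TPI1 and PGK1 against scramble and reverse. The 3 comparisons share the CR3 libraries and are not independent. In bulk RNA, fewer cells that express a gene and less RNA per cell cannot be told apart.

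**Figure D1:**
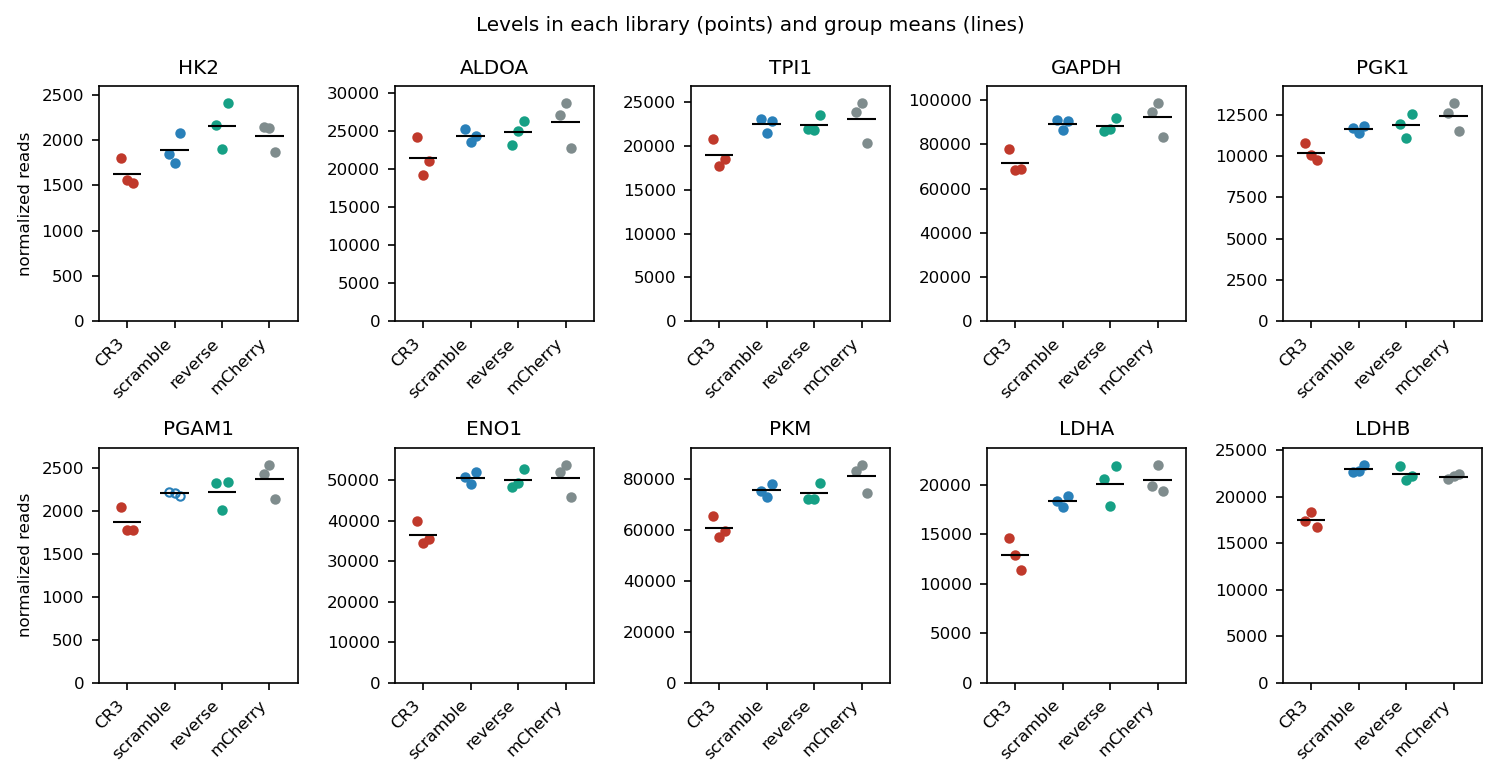
Normalized reads (y axis, linear from 0) of the 10 genes in each library (points) of the CR3, scramble, reverse and mCherry groups, with group means as lines; open points are PGAM1 values whose power of 10 is uncertain. The CR3 points lie lowest in every panel on average, for PGAM1 at the likeliest reading of scramble, and for ENO1, GAPDH, PKM, PGK1, LDHA and LDHB all 3 lie below every other library.

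LDHA (ENSG00000134333, GRCh38 chromosome 11, 18394388 to 18408425, plus strand), the subunit that favours lactate formation, changed most. It had 14593, 12910 and 11355 normalized reads in the CR3 libraries, 18355, 17739 and 18918 in the scramble libraries, 20639, 17817 and 21887 in the reverse libraries, and 19882, 22020 and 19434 in the mCherry libraries. All 3 CR3 libraries lay below all 9 others, and the CR3 values themselves ran over a wider range than those of scramble. The log2 fold change of LDHA was -0.66 ± 0.08 (SE) against mCherry, with an adjusted p of 9.38e-06 in limma. Against scramble it was -0.51 (adjusted p = 0.00012 in limma) and against reverse -0.64 (adjusted p = 1.3e-05). Leaving out libraries or changing the scaling moved the value against mCherry between -0.75 and -0.57, and LDHA was called each time.

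LDHB (ENSG00000111716, chromosome 12, 21635342 to 21757857, minus strand), the subunit of the form that turns lactate back to pyruvate, fell by less than LDHA but with the tightest replicates. Its normalized reads were 17439, 18365 and 16800 in CR3 cells, 22621, 22758 and 23425 in scramble cells, 23305, 21791 and 22248 in reverse cells, and 21888, 22237 and 22398 in mCherry cells. The 9 libraries outside CR3 lay between 21791 and 23425, so the gap to the highest CR3 library was larger than the whole range of the others. Against mCherry the log2 fold change of LDHB was -0.34 ± 0.05 (SE), with an adjusted p of 1.96e-05 in limma. Its adjusted p was 3.25e-06 against scramble, where the change was -0.39, and 9.85e-06 against reverse, where it was -0.36.

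Per kilobase of annotated exon, LDHA made up 26.1% ± 2.3 of the summed LDHA and LDHB level in CR3 cells (SD, n = 3), 27.7% ± 0.46 in scramble cells, 30.0% ± 2.0 in reverse cells and 30.7% ± 1.4 in mCherry cells. LDHB was the more abundant transcript per length in every group. The CR3 libraries, from 24.5% to 28.7%, did not overlap the mCherry libraries, from 29.4% to 32.2%. They did overlap the scramble libraries, which ran from 27.2% to 28%, and the reverse libraries, from 28.2% to 32.1%. These shares are descriptions without a test.

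**Figure D2:**
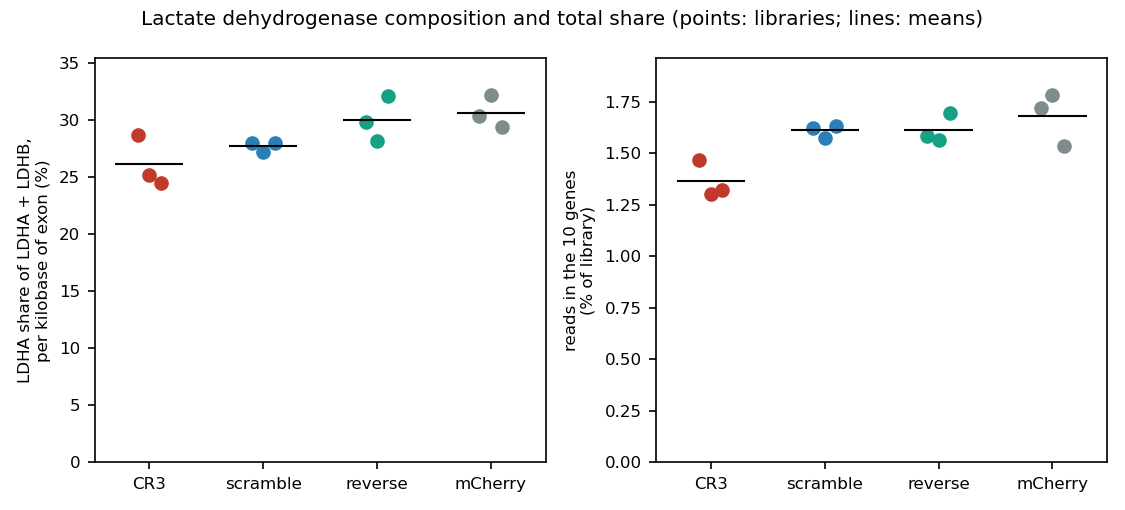
Left, the LDHA share of LDHA plus LDHB in percent, per kilobase of exon, and right, the percent of library reads in the 10 genes, for each library (points) with group means (lines) in CR3, scramble, reverse and mCherry cells. The LDHA share of CR3 libraries lies below that of mCherry libraries and overlaps scramble and reverse, and the right panel shows 1.36% of reads in CR3 cells and 1.68% in mCherry cells.

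ENO1 (ENSG00000074800, chromosome 1, 8861000 to 8879250, minus strand), which makes phosphoenolpyruvate, held nearly the same ratio to each of the other groups. It had 39831, 34378 and 35478 normalized reads in CR3 cells, 50859, 48949 and 52074 in scramble cells, 48235, 49200 and 52791 in reverse cells, and 51918, 53750 and 45738 in mCherry cells. All CR3 libraries stood well below the lowest of the others. ENO1 changed by -0.46 ± 0.07 (SE) on the log2 scale relative to mCherry, by -0.47 ± 0.07 relative to scramble and by -0.46 ± 0.07 relative to reverse. The limma adjusted p-values were 4.93e-05, 3.07e-05 and 5.3e-05.

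PKM (ENSG00000067225, chromosome 15, 72199029 to 72231822, minus strand) catalyses the last step to pyruvate. Counts per gene do not separate its splice forms, the muscle type and the form common in tumours. Its normalized reads were 65405, 57221 and 59506 in CR3 cells, 75363, 72959 and 78083 in scramble cells, 72218, 72056 and 78491 in reverse cells, and 83103, 85416 and 74589 in mCherry cells. No CR3 library reached the lowest of the others. In log2 units PKM fell by 0.42 against mCherry (SE 0.07, adjusted p = 0.000115 in limma), by 0.32 against scramble (adjusted p = 0.00106) and by 0.29 against reverse (adjusted p = 0.00228).

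GAPDH (ENSG00000111640, chromosome 12, 6533927 to 6538374, plus strand), the oxidising step of the pathway and a transcript widely used to scale other measurements, was also lower in CR3 cells. It had 77835, 68303 and 69045 normalized reads in CR3 cells, 91212, 86631 and 90511 in scramble cells, 86145, 87172 and 91990 in reverse cells, and 94843, 98561 and 83174 in mCherry cells. The CR3 and mCherry ranges did not overlap, the lowest mCherry library being replicate 3. The fold was 0.779 against mCherry (adjusted p = 0.000686 in limma), 0.801 against scramble (adjusted p = 0.00134) and 0.81 against reverse (adjusted p = 0.00235).

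PGK1 (ENSG00000102144, chromosome X, 77910739 to 78129296, plus strand), which makes ATP from bisphosphoglycerate, had 10809, 10059 and 9724 normalized reads in CR3 cells, 11690, 11393 and 11791 in scramble cells, 11945, 11110 and 12516 in reverse cells, and 12605, 13176 and 11497 in mCherry cells. CR3 libraries lay below the rest, but their highest, replicate 1, came close to the lowest of reverse. In log2 units PGK1 fell by 0.28 against mCherry (adjusted p = 0.00112 in limma), by 0.19 against scramble (adjusted p = 0.0142) and by 0.22 against reverse (adjusted p = 0.00707). Without CR3 replicate 3 the adjusted p of PGK1 against scramble was 0.0674 in limma. Its annotated span on GRCh38 overlaps ATP7A on the same strand, a copper transporter gene with a mean of 880 normalized reads in CR3 cells and between 662 and 687 in the other groups.

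TPI1 (ENSG00000111669, chromosome 12, 6867119 to 6870948, plus strand), which interconverts the triose phosphates, had 20825, 17750 and 18479 normalized reads in CR3 cells, 23089, 21520 and 22888 in scramble cells, 21904, 21866 and 23535 in reverse cells, and 23926, 24872 and 20377 in mCherry cells. CR3 libraries lay below those of scramble and reverse, and CR3 replicate 1 overlapped mCherry replicate 3. TPI1 was lower than in mCherry cells by a log2 fold change of -0.28 (adjusted p = 0.00722 in limma), than in scramble cells by -0.25 (adjusted p = 0.0115) and than in reverse cells by -0.24 (adjusted p = 0.0145). Without reverse replicate 3 the last of these had an adjusted p of 0.0631 in limma.

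ALDOA (ENSG00000149925, chromosome 16, 30064164 to 30070457, plus strand), which splits fructose bisphosphate, was called against mCherry only, and its difference between these comparisons was not tested. It had 24271, 19204 and 21009 normalized reads in CR3 cells, 25244, 23581 and 24292 in scramble cells, 23165, 24996 and 26268 in reverse cells, and 27108, 28619 and 22825 in mCherry cells. CR3 replicate 1 overlapped all 3 other groups. The log2 fold change of ALDOA was -0.28 ± 0.08 (SE) against mCherry, with an adjusted p of 0.0169 in limma, and -0.19 and -0.21 against scramble and reverse, with adjusted p-values of 0.0898 and 0.0619. The call against mCherry was lost without CR3 replicate 2 (adjusted p = 0.0616 in limma), without mCherry replicate 1 (0.0617) or without mCherry replicate 2 (0.0849). Without CR3 replicate 1, ALDOA was called against scramble and reverse too, with adjusted p-values of 0.00581 and 0.00371.

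HK2 (ENSG00000159399, chromosome 2, 74833981 to 74893359, plus strand) phosphorylates glucose as it enters the pathway and is the hexokinase best known from tumours. Its normalized reads were 1802, 1559 and 1521 in CR3 cells, 1852, 1743 and 2079 in scramble cells, 2162, 1907 and 2405 in reverse cells, and 2146, 2131 and 1864 in mCherry cells. CR3 libraries lay below those of reverse and mCherry and overlapped scramble. HK2 was called lower against reverse, with a log2 fold change of -0.40 (adjusted p = 0.00174 in limma), and against mCherry, at -0.33 (adjusted p = 0.00858). Against scramble its value was -0.22 (adjusted p = 0.0611), and without CR3 replicate 1 it was -0.29 (adjusted p = 0.0115).

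PGAM1 (ENSG00000171314, chromosome 10, 97426160 to 97433441, plus strand), which moves the phosphate of phosphoglycerate, had 2046, 1782 and 1786 normalized reads in CR3 cells, 2327, 2010 and 2338 in reverse cells, and 2433, 2540 and 2145 in mCherry cells. The scramble digits read most likely as 2225, 2216 and 2183, but a reading a power of 10 lower, near 222, could not be set aside, and the gene was left out of the test for that reason. In a fit that kept such genes at their likeliest reading, PGAM1 had log2 fold changes of -0.34 relative to mCherry (adjusted p = 0.00163 in limma), -0.24 relative to scramble (0.0136) and -0.25 relative to reverse (0.0127). The CR3 libraries lay below those of mCherry, and CR3 replicate 1 overlapped reverse.

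**Figure D3:**
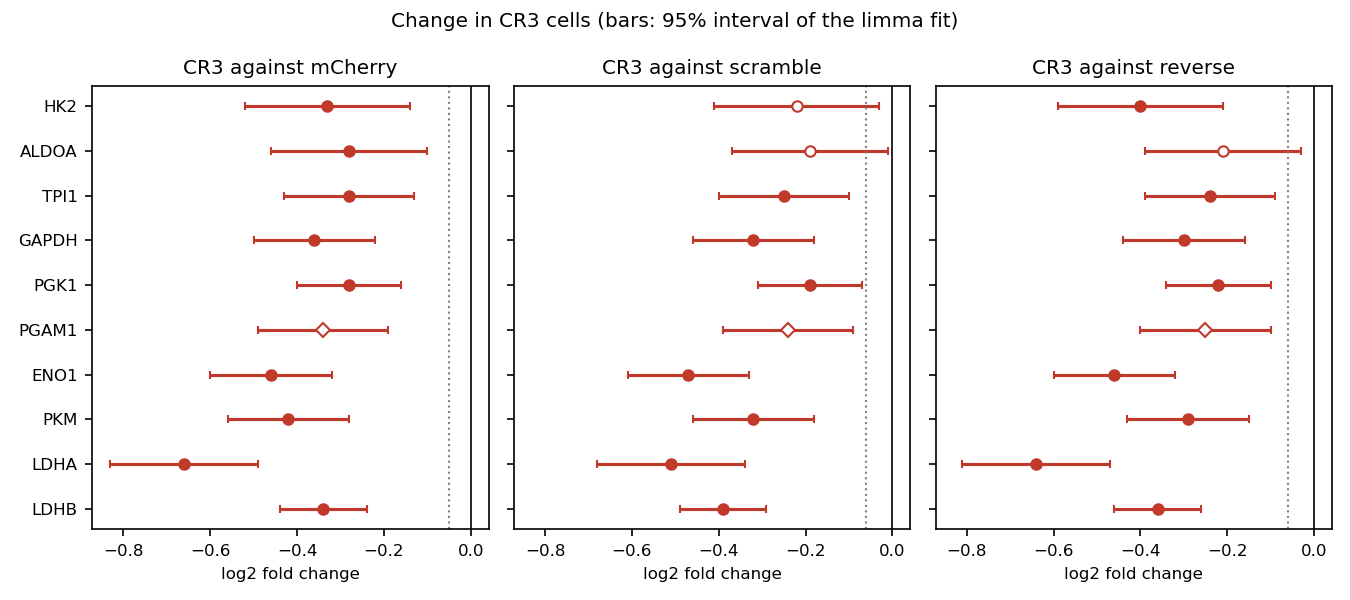
Log2 fold change (x axis) of each gene in CR3 cells against mCherry, scramble and reverse, with bars for the 95% interval of the limma fit; filled circles are called, open circles are not, the open diamond is PGAM1 from the fit that kept uncertain genes, and the dotted line is the median of 5024 abundant genes. Every point lies left of 0, LDHA lies farthest left in each panel, and HK2 against scramble and ALDOA against scramble and reverse are open.

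No member was called in scramble against mCherry, reverse against mCherry or reverse against scramble with limma, where 1.52%, 0.665% and 0.484% of tested genes were called in either direction, so a count of 0 among 9 is near the background. At an unadjusted p under 0.05 the numbers were 0, 0 and 1, the last being HK2. With limma voom 0 members were called in each, and 1, 1 and 1 had an unadjusted p under 0.05. The largest of these differences, HK2 in reverse against scramble, was 0.19 on the log2 scale with a 95% half-width of 0.19 (adjusted p = 0.687 in limma). LDHA had no overlap between scramble and mCherry, scramble being lower at a log2 fold change of -0.16, and LDHB had none either, scramble being higher at 0.05, but the adjusted p-values were 0.405 and 0.666. Such a gap with scramble lower was found in 9.23% of all tested genes, and with scramble higher in 9.9%.

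Together the 10 genes took 1.36% ± 0.091 of all reads in CR3 libraries (SD, n = 3), 1.61% ± 0.031 in scramble, 1.61% ± 0.071 in reverse and 1.68% ± 0.13 in mCherry libraries. The highest CR3 library reached 1.468% and the lowest of the other 9 was mCherry replicate 3 at 1.535%. GAPDH alone accounted for 0.386% of reads in CR3 cells and 0.466% in mCherry cells.

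Set against length, the order of the genes was stable at its ends and mixed in the middle. GAPDH led in every group, with 24062 ± 1779 normalized reads per kilobase of annotated exon in CR3 cells, 30007 ± 828 in scramble cells, 29666 ± 1047 in reverse cells and 30927 ± 2693 in mCherry cells (SD, n = 3). Behind it PKM (7083), TPI1 (7044) and ENO1 (6930) had overlapping ranges in CR3 cells, whereas ENO1 (9566) ranked above PKM (9455) and TPI1 (8540) on average in mCherry cells. There too, neighbours in that order overlapped. LDHB and ALDOA followed, at 5878 and 5489 per kilobase in CR3 cells, then LDHA at 2086 and PGK1 at 1850, whose ranges overlapped in CR3 cells but in none of the other groups. PGAM1 at 729 and HK2 at 268 came last in CR3 cells, and the same pair closed the order in the other groups.

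Libraries of a group differed from each other mostly in common. CR3 replicate 1 lay above the mean of its group for 9 of the 10 genes, with a median log2 deviation of 0.129, and mCherry replicate 2 for all 10, at 0.097. In mCherry replicate 3 a single gene of the 10, LDHB, lay above, and the median deviation was -0.135. Over the 12 libraries the Pearson correlation of centred log2 values ranged between 0.543, for LDHB with ALDOA, and 0.984, for ENO1 with GAPDH. The 12 points share their groups and scaling, so these are descriptions. Among 10308 other protein-coding genes with at least 100 normalized reads in every library, those whose values were most like the mean of the 10 were the ribosomal protein genes RPL13A (r = 0.98), RPL3 (0.977) and RPS3 (0.969), the transcription factor gene FOSL2 (0.978) and the lipoprotein receptor gene SCARB1 (0.967). RPL13A averaged 24368 normalized reads in CR3 cells and 32468 in mCherry cells.

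**Figure D4:**
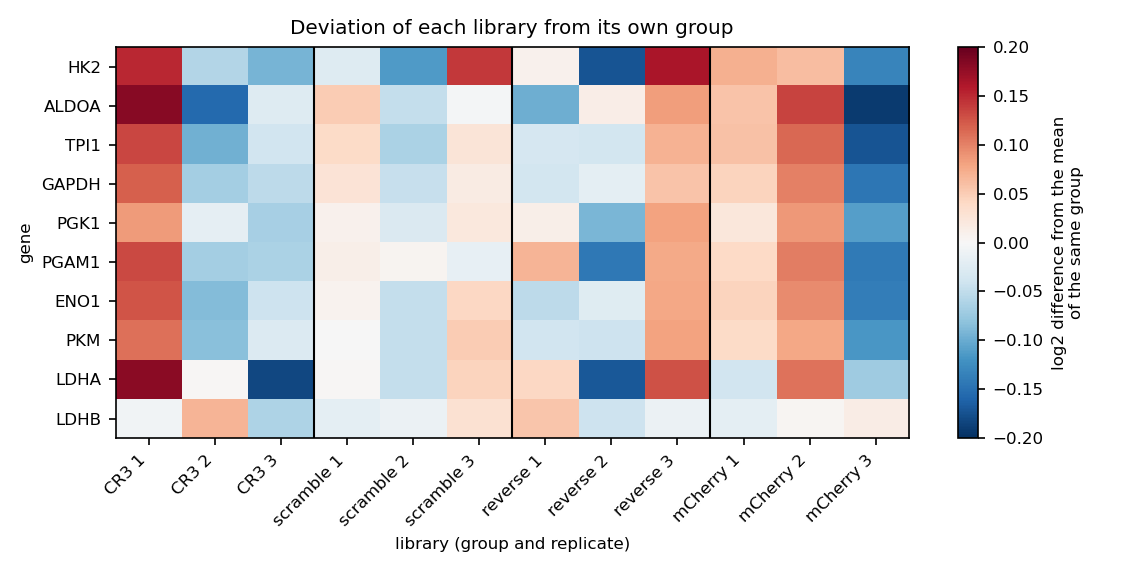
Log2 difference of each library (columns, by group and replicate) from the mean of its own group for the 10 genes (rows), on a colour scale from -0.20 (blue) to 0.20 (red). CR3 replicate 1 and mCherry replicate 2 are red and mCherry replicate 3 is blue for nearly all genes, and LDHB stays pale.

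Promoter letters were compared because the genes moved together and because hypoxia-inducible factors and MYC are known to act at many of them. RefSeq promoter windows on GRCh38.p14 were found for all 10 genes, 15 windows in all, and the 250 bases before each start were searched on both strands for ACGTG and GCGTG, the cores of the hypoxia response element, and for CACGTG, the E-box, which contains the first of these. That first core was found for 6 of the 10 genes (HK2, ALDOA, TPI1, GAPDH, PGK1 and LDHA), against 18.5% of 35116 windows over all genes. GCGTG was found for 5 (HK2, TPI1, PGK1, ENO1 and LDHA), against 32.2% of windows, and CACGTG for 4 (HK2, ALDOA, GAPDH and LDHA), against 6.34%. Genes with several windows had more chances, and counted by window ACGTG lay in 9 of 15, GCGTG in 6 and CACGTG in 4. The base composition also differed, 11 of the 15 windows having more G and C than the median of 58.0% over all windows, and its part in the matches was not tested. LDHB, PGAM1 and PKM had neither core. The stretches below are the parts of such windows outside annotated exons, shown for LDHA as the gene that changed most, LDHB as its partner without a match, GAPDH, PGK1 with 3 separate matches, and HK2, with either core in capitals on either strand; an E-box appears as 6 capitals in a row. They are LDHA at chr11:18394313-18394387 (plus strand), LDHB at chr12:21657972-21658092 (minus strand), GAPDH at chr12:6535142-6535263 (plus strand), PGK1 at chrX:78103998-78104173 (plus strand) and HK2 at chr2:74834920-74835169 (plus strand), each printed 5′ to 3′ along its gene.
LDHA: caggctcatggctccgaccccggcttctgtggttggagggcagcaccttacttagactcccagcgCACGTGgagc
LDHB: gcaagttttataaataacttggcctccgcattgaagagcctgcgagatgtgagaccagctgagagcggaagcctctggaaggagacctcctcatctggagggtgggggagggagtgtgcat
GAPDH: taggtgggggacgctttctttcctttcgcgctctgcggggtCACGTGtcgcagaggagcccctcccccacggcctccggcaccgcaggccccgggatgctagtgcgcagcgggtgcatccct
PGK1: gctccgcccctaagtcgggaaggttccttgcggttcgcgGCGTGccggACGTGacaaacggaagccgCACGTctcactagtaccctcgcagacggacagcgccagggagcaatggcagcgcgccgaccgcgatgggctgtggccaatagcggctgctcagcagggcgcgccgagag
HK2: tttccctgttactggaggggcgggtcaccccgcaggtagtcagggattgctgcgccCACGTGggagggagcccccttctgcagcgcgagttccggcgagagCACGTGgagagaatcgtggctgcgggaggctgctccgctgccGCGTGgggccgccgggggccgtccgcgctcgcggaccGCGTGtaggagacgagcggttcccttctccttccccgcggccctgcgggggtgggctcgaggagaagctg
In the LDHA stretch an E-box stands close to the end nearer the gene. GAPDH holds a single one, HK2 holds an E-box at 2 places and GCGTG at 2 more, and PGK1 holds GCGTG and ACGTG without an E-box. A match describes letters only, and no binding was measured.

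Processed pseudogenes of these enzymes are many, and reads may be shared with them. The annotation held 104, of which 65 had at least 1 read. For GAPDH they held between 0.813% and 0.971% of the reads of the parent in CR3 cells and between 0.766% and 0.87% in mCherry cells, 89.2% of them in GAPDHP1. LDHAP7 had 122, 88.6 and 92.5 normalized reads in CR3 cells and 171, 153 and 191 in mCherry cells, a log2 fold change of -0.77 (adjusted p = 0.00105 in limma) beside -0.66 for LDHA, and LDHAP4 had a log2 fold change of -0.71 (adjusted p = 0.00576). The pseudogenes of PGAM1 went the other way. They held between 2.26% and 2.88% of the parent's reads in CR3 libraries, against 0.627% to 0.916% in reverse and 0.497% to 0.601% in mCherry libraries. No share is given for scramble, where the reads of PGAM1 itself are uncertain by a power of 10. PGAM1P5 (chromosome 12, 95551582 to 95673999) had 70 reads over the CR3 libraries, 2 in scramble, 4 in reverse and 0 in mCherry libraries. Its adjusted p against mCherry was 7.1e-06 in limma. PGAM1P5 met the minimum of 10 reads in 3 libraries through the CR3 libraries alone. It could therefore only be called higher in them, and its p-value is no support for the direction. Reads of a gene and of a near-identical copy may have been exchanged in the counting, and these values are uncertain to that extent.

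Of 23 other enzymes and isoforms of the route, 12 were tested. Against mCherry 3 of these were called lower (14.5% of all tested genes) and 1 higher (14.0%), with a median log2 fold change of -0.08, and their difference from the core genes was not tested. PFKP, the platelet-type phosphofructokinase, had 6645, 5859 and 5935 normalized reads in CR3 cells and 8467, 8374 and 7491 in mCherry cells. No CR3 library of PFKP reached an mCherry library, and its log2 fold change was -0.40 (adjusted p = 2.69e-05 in limma). GPI, which turns glucose 6-phosphate into fructose 6-phosphate, had 10959, 9018 and 9277 normalized reads in CR3 cells and 12596, 13425 and 11235 in mCherry cells, again with no overlap, at -0.35 (adjusted p = 0.00111). PFKP and GPI were called lower against scramble and reverse as well, and 11.1% of all tested genes were called lower against all 3 groups. PFKM, the muscle-type phosphofructokinase, was at -0.17 against mCherry (adjusted p = 0.0168), a call lost without CR3 replicate 2 (adjusted p = 0.0567 in limma), CR3 replicate 3 (0.101), mCherry replicate 1 (0.0512) or mCherry replicate 2 (0.0893), and at -0.08 with library size alone (0.224). LDHC, the lactate dehydrogenase subunit of testis, was the gene called higher: it had 61 reads over the CR3 libraries, 3 in scramble, 3 in reverse and 4 in mCherry libraries (adjusted p = 0.000292 against mCherry in limma). Per kilobase it stayed far below LDHA and LDHB. LDHC met the read minimum through the CR3 libraries alone. It could therefore only be called higher in them, and its p-value is no support for the direction. Without CR3 replicate 2 or without CR3 replicate 3 the list had 2 calls in place of 4, as LDHC then missed the minimum of 10 reads in 3 libraries and PFKM its threshold. HK1, the hexokinase of most tissues, had 4071, 3628 and 3846 normalized reads in CR3 cells and 3747, 3845 and 3613 in mCherry cells, which overlap. It was called higher in CR3 cells against scramble, at a log2 fold change of 0.19 (adjusted p = 0.0127), and not against mCherry, at 0.04 (adjusted p = 0.622). LDHD, the D-lactate dehydrogenase, was called higher against scramble, at 0.54 (adjusted p = 0.0191 in limma), and reverse, at 0.58 (0.0141), and not against mCherry, at 0.26 (0.279). ADPGK, an ADP-dependent glucokinase, was called lower against scramble, at -0.21 (adjusted p = 0.00938), and not against mCherry, at -0.05 (0.587). HK1, LDHD and ADPGK were picked after their values were seen.

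The carriers of glucose and lactate had calls in both directions. Of 16 listed, 12 were tested, and against mCherry 2 were called lower (14.5% of all tested genes) and 3 higher (14.0%), with a median of 0.15. BSG, a partner protein of lactate carriers and the most abundant gene of the list in CR3 cells, was at -0.01 (adjusted p = 0.906 in limma) and is named after its value was seen. SLC2A1, the main glucose carrier of many tumours, had 4551, 3164 and 3633 normalized reads in CR3 cells, 4629, 4271 and 4727 in scramble cells, 4609, 3996 and 5261 in reverse cells, and 5827, 6249 and 4798 in mCherry cells. CR3 lay below mCherry without overlap but overlapped scramble and reverse. The log2 fold change of SLC2A1 was -0.58 against mCherry (adjusted p = 0.00122 in limma), and -0.28 and -0.30 against scramble and reverse, where the adjusted p-values were 0.0717 and 0.0619. SLC16A3, which carries lactate out of glycolytic cells, had 7717, 5987 and 6712 normalized reads in CR3 cells and 10091, 10091 and 8122 in mCherry cells. It was called lower against all 3 groups, at -0.47 against mCherry (adjusted p = 0.000467). SLC2A3, a high-affinity glucose carrier best known from neurons, had 47.6, 78.9 and 60.6 normalized reads in CR3 cells, against 25.1, 21.9 and 14.9 in mCherry cells. Its CR3 libraries lay above all others, with a log2 fold change of 1.55 (adjusted p = 0.000213). SLC2A10, another member of that carrier family, had 176 reads over the CR3 libraries, 1 in scramble, 1 in reverse and 4 in mCherry libraries (adjusted p = 8.25e-08 against mCherry). Both stayed far below SLC2A1 per kilobase. SLC2A10 met the read minimum through the CR3 libraries alone. It could therefore only be called higher in them, and its p-value is no support for the direction. EMB, another partner protein of lactate carriers, was the remaining call, at 0.23 (adjusted p = 0.0255), and is named here after its value was seen. Leaving out CR3 replicate 2 or CR3 replicate 3 left 3 calls of 5, SLC2A10 then missing the read minimum.

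Of 14 regulators listed, 11 were tested. Against mCherry 3 were called higher (14.0% of all tested genes) and 1 lower (14.5%), and the median was 0.01. HIF1A, the oxygen-sensitive subunit of the hypoxia-inducible factor, had 6571, 7053 and 6751 normalized reads in CR3 cells and 7044, 7032 and 8072 in mCherry cells, which overlap, with a log2 fold change of -0.12 (adjusted p = 0.0969 in limma). It was picked after its value was seen, for its role. EPAS1, the related HIF-2 subunit, and VHL, which marks both for destruction, were called higher against all 3 groups, a rule that 1699 of the 15489 tested genes met. Against mCherry EPAS1 was at 0.14 (adjusted p = 0.0255 in limma) and VHL at 0.18 (adjusted p = 0.026). PFKFB2, which makes the activator fructose 2,6-bisphosphate, was at 0.26 (adjusted p = 0.017), and PFKFB4, another enzyme of that family, at -0.51 (adjusted p = 0.044). PFKFB4 had 739, 501 and 531 normalized reads in CR3 cells and 921, 1000 and 616 in mCherry cells, which overlap. These calls were fragile: 2 remained in number without CR3 replicate 2 or mCherry replicate 1, and 1 without CR3 replicate 3 or mCherry replicate 2.

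For the step that takes pyruvate into the mitochondrion 16 genes were listed and all were tested. Against mCherry 4 were called lower, where 14.5% of all tested genes and 27.4% of the abundant ones were, and 1 higher (14.0% of all), with a median of -0.10. PDP1, the phosphatase that switches on pyruvate dehydrogenase, had 9314, 9543 and 9364 normalized reads in CR3 cells, 13532, 12983 and 12592 in scramble cells, 14011, 13533 and 13848 in reverse cells, and 13189, 13463 and 14123 in mCherry cells. The CR3 values lay close together and far below the rest, with a log2 fold change of -0.53 ± 0.04 (SE) against mCherry (adjusted p = 5.45e-08 in limma). DLD, DLAT and PDHA1, subunits of the dehydrogenase complex, were lower by less, at -0.16 (adjusted p = 0.0098), -0.17 (0.0167) and -0.14 (0.023). With library size alone DLD was at -0.07 (adjusted p = 0.247 in limma), DLAT at -0.08 (0.233) and PDHA1 at -0.05 (0.39), and none of the 3 was called. These 3 and PDP1 were called lower against scramble and reverse too, and 11.1% of all tested genes were called lower against all 3 groups. MPC1, part of the mitochondrial pyruvate carrier, was the gene called higher, at 0.26 (adjusted p = 0.047), and is named after its value was seen. Without CR3 replicate 3 a single call of the 5 was left.

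In the side branches the calls against mCherry were in the lower direction. Of 8 pentose phosphate genes, 3 were called lower against all 3 groups (11.1% of all tested genes) and none higher against mCherry (14.0%), with a median of -0.15 against mCherry. The 3 called lower belong to the abundant genes, of which 27.4%, 34.7% and 31.3% were called lower against mCherry, scramble and reverse. Transketolase TKT, which shuttles carbon between this branch and glycolysis, had 8981, 7368 and 8117 normalized reads in CR3 cells and 11041, 11508 and 9672 in mCherry cells, without overlap, at a log2 fold change of -0.40 (adjusted p = 0.000342 in limma). PGD, which makes NADPH, was at -0.23 (adjusted p = 0.000537), and TALDO1, the transaldolase, at -0.27 (adjusted p = 0.000958). RPIA, the ribose 5-phosphate isomerase, was called lower against scramble (-0.35) and reverse (-0.33) but not mCherry. H6PD, an enzyme of the endoplasmic reticulum, was called higher against scramble, at 0.45 (adjusted p = 6.36e-05 in limma), and reverse, at 0.34 (0.00101). It was not called against mCherry, at 0.16 (0.0977). H6PD was also called lower in scramble than in mCherry cells, at -0.29 (adjusted p = 0.0427 in limma). Of 5 tested genes of the glycerol phosphate and serine branches, 3 were called lower against all 3 groups (11.1% of all tested genes), and these 3 are abundant genes too. GPD1, the cytosolic glycerol phosphate dehydrogenase, was called higher against reverse (16.9% of all tested genes), at 0.34 (adjusted p = 0.0367). RPIA, H6PD and GPD1 were picked after their values were seen. GPD2, which passes electrons of glycerol phosphate to the respiratory chain, was at -0.27 against mCherry (adjusted p = 0.000441). PHGDH, the entry to serine synthesis, was at -0.26 (adjusted p = 0.016), and PSAT1, a later enzyme of that route, at -0.17 (adjusted p = 0.03). With library size alone PHGDH was at -0.17 (adjusted p = 0.0954) and PSAT1 at -0.08 (0.299). Without CR3 replicate 3 or mCherry replicate 2, only 1 of these 3 calls was left.

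**Figure D5:**
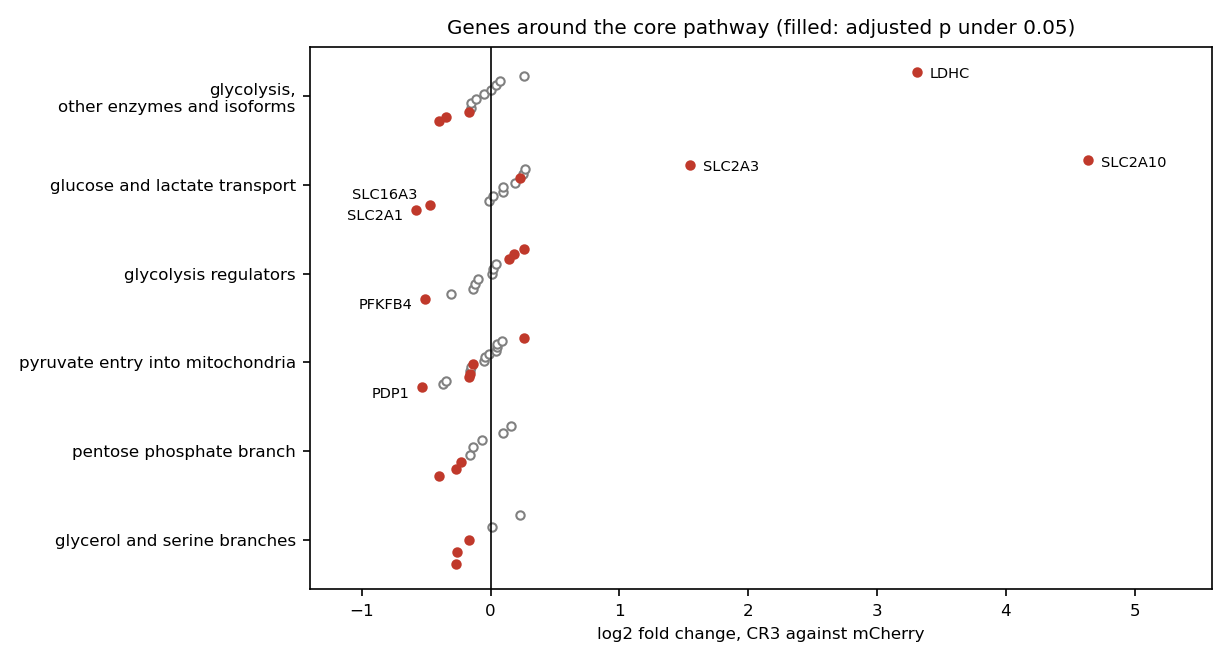
Log2 fold change in CR3 against mCherry cells (x axis) of each tested gene in 6 lists around the core genes (rows), filled where the adjusted p is under 0.05 and open where it is not. The lower calls lie between -0.58 and -0.14, and the isolated points to the right are LDHC, SLC2A3 and SLC2A10.

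Other markers moved with the CR3 group. Of 12 colorectal epithelial markers, 7 were tested. EPCAM, KRT8, KRT18 and KRT19 were called lower in CR3 cells than in all 3 groups, a rule that 11.1% of all tested genes met. These 4 belong to the abundant genes, of which 27.4%, 34.7% and 31.3% were called lower against mCherry, scramble and reverse. None of the 7 was called higher against all 3, which 1699 of the 15489 tested genes were. CDH1, KRT20 and CDX2 were tested and met neither rule, at -0.12, -0.82 and 0.11 (log2) against mCherry. The summed level of the 12 ran from 45703 to 52950 normalized reads in CR3 libraries, 57817 to 60964 in scramble, 55193 to 59270 in reverse and 55919 to 62836 in mCherry libraries. KRT18, a keratin of simple epithelia, was at -0.30 (log2) against mCherry. CDX1, an intestinal transcription factor, was at or near 0 in every group, with 0 reads over the CR3 libraries, 0 in scramble, 2 in reverse and 1 in mCherry libraries. For lines of embryonic kidney or neuron-like origin 14 markers were listed, 12 were found and 8 tested, of which 5 were called higher in CR3 cells against all 3 groups and 1 lower. Their sum ran from 1877 to 2123 in CR3 libraries, 653 to 667 in scramble, 662 to 709 in reverse and 702 to 780 in mCherry libraries. Among them IRS4 had 1732 reads over the CR3 libraries, 5 in scramble, 4 in reverse and 15 in mCherry libraries, while ELAVL4 had none in any library and PAX2 was at -0.04 against mCherry. Of 6 blood markers 1 was tested and called higher, with sums from 14.9 to 19.3 in CR3 libraries and 3.2 to 6.27 in mCherry libraries, and PTPRC had no read. Fibroblast markers summed to between 880 and 1079 in CR3 libraries and between 670 and 920 in mCherry libraries, and endothelial markers to between 13.8 and 24.6 in CR3 libraries and between 18.1 and 35.3 in mCherry libraries, with none of either list called against all 3 groups. The part of these markers in the levels of the glycolytic genes was not tested.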

How the data were processed

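PolyA RNA was sequenced from 12 libraries, 3 for each of 4 genotypes, and each was grouped and numbered by its title. The tools in the submitters' processing notes are STAR, Salmon and featureCounts, DESeq2 and edgeR, GATK, Trim Galore, MultiQC and FastQC, with the build GRCh38. Roles, versions and the strand setting were not given in those notes as used here. Overlapping and antisense genes are therefore uncertain, although the kit was stranded per the labels' protocols. The deposited values are read as a score, because their decimal mark had been lost: from the values, they are the digits of read counts after the authors' division by a library size factor.

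Reads were rebuilt as whole multiples of the value of a single read, with the power of 10 chosen per gene by likelihood with the group labels. All 265152 non-zero cells (100.0%) were whole within 1e-07. In 1669 cells (0.629%) another power lay within a likelihood ratio of 20, and a gene holding any was not tested. Of the 18138 cells that kept their mark, 98.23% were read correctly with it hidden. A gene that fell by about 10-fold in a group may still be misread. The 9 tested members had no uncertain cell.

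Genes with at least 10 reads in at least 3 libraries (16173) less 684 with an uncertain cell gave 15489 tested genes, 15139 of them with a symbol. The test was limma 3.58.1 in R 4.3.3 on log2(normalized reads + 1) with a trend of variance on mean, so folds of low genes are understated, 4 groups in a fit to all 12 libraries, two-sided, adjusted by Benjamini-Hochberg over all tested genes and called under 0.05. The code was tested on simulated data. Levels per kilobase use the summed exon length of GENCODE release 29. The rest used pandas 2.3.3, numpy 2.4.6, matplotlib 3.10.9 and scipy 1.17.1 under Python 3.11.15. Named genes were all members and up to 4 called genes per list by adjusted p against mCherry. Added to these were the 5 genes outside the lists most like the members' mean. Pseudogenes, markers and the genes so marked were picked after their values were seen. The members, lists, tests and alternatives were chosen with earlier results of these data known, and are no independent support for a direction. Alternatives covered the pseudocount, the read filter, the scaling, limma voom, no trend, the replicate block, the groups fitted, the rebuilding and each left-out library.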

Additional observations from a re-analysis of the deposited data

How the results depend on the processing

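Over 25 alternative settings, the 9 tested genes and PGAM1 gave 678 values against mCherry, scramble and reverse. None reversed, 648 kept their side of the threshold, 15 lost the call and 15 gained it. Scaling by library size alone moved the median of all genes to 0.091 against mCherry, 0.104 against scramble and 0.094 against reverse (log2), and of the genes called against all 3 groups 75.0% were then higher in CR3 cells, against 49.6% with the deposited size factors. There the calls of ALDOA against mCherry (limma adjusted p = 0.0808), TPI1 against scramble (0.0863) and reverse (0.0937) and PGK1 against scramble (0.172) and reverse (0.0803) were lost. Without a trend, ALDOA against mCherry (0.0711), TPI1 against reverse (0.058) and PGK1 against scramble (0.0519) were lost, and with only the groups compared, ALDOA (0.0804) and TPI1 (0.05) against mCherry. The cause was not tested.

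Leaving out each library in turn gave 8 to 9 members called against mCherry, 6 to 9 against scramble, 7 to 9 against reverse and 6 to 9 against all 3. It gave 0 to 0 in each comparison without CR3. Calls against mCherry ran from 2 to 5 for the other glycolysis genes, 3 to 6 for transport, 1 to 5 for regulators, 1 to 7 for pyruvate entry, 3 to 4 for the pentose branch and 1 to 3 for the glycerol and serine branches. The LDHA share ran from 24.9% to 26.9% in CR3, 27.6% to 28% in scramble, 29% to 31% in reverse and 29.9% to 31.3% in mCherry cells, and the reads in the 10 genes from 1.31% to 1.39%, 1.60% to 1.63%, 1.57% to 1.64% and 1.63% to 1.75% in the same groups. Regulators called against mCherry numbered 2 with no filter, 1 without a trend and 1 with only the groups compared, in place of 4. Pyruvate entry had 2 calls with library size alone and 2 with only the groups compared, in place of 5, and the glycerol and serine branches 1 with library size alone, 1 without a trend and 1 with only the groups compared, in place of 3.

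Same-numbered libraries showed no common deviation over the tested genes (r between -0.127 and 0.0632 over 18 pairs). Differently numbered pairs reached 0.196 and -0.196. These values cannot show whether libraries of a number shared a culture or a preparation. With a replicate block 4040 genes were called against mCherry in place of 4414, and 145 in place of 235 in scramble against mCherry. With that replicate block 9 members were called against mCherry, 7 against scramble and 8 against reverse. PFKFB4 against mCherry lost its call (limma adjusted p = 0.0545). Depth limits LDHC, SLC2A10 and PGAM1P5, which rest on 61, 176 and 70 reads in CR3 libraries. These genes met the read minimum through the CR3 libraries alone and could only be called higher in them.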
